A study of Mus musculus with 11 samples.

Results

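The genes of 10 myeloid C-type lectin receptors were examined in skin and small intestine of BALB/c mice treated with imiquimod (IMQ) or vehicle cream. The members were *Clec4a1*, *Clec4a2*, *Clec4a3*, *Clec4d*, *Clec4e*, *Clec4n*, *Clec7a*, *Clec9a*, *Clec10a* and *Clec12a*. They were taken by their symbol from the 45777 genes of the deposited table, and were chosen with earlier results of these data known. IMQ is a ligand of the endosomal receptor TLR7, and applied to the skin it induces psoriasis-like dermatitis in mice. Mice aged 8 to 10 weeks, described as female or male, were shaved and received 62.5 mg of cream per day, which was Aldara cream with 5% IMQ in the treated group and Vaseline in the control group. IMQ and the other components of its cream therefore cannot be told apart. The sample annotation gives 5 to 8 days of treatment and includes the right ear besides the back, whereas the study's methods state a shorter longest course and the back alone. The days of each mouse are not stated. For the skin, RNA of 3 control and 3 IMQ samples was sequenced, numbered 1 to 6. For the small intestine there were 3 control samples and 2 with IMQ, numbered 7 to 11.

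C-type lectin receptors of myeloid cells are membrane proteins that bind sugars, lipids or proteins of microbes and of damaged cells. Some carry an inhibitory motif in their cytoplasmic tail, which recruits phosphatases. Others signal through the kinase SYK, either with a tail motif of their own or with the adaptor chain FcRγ, and the adaptor CARD9 then carries the signal to NF-κB and cytokine genes. In bulk tissue a change in the number of cells that express a gene and a change in RNA per cell cannot be told apart.

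The libraries held 44995414 to 58526384 counts each. Nothing in the annotation states which skin and intestine came from one mouse, and p-values measure the spread between these libraries. Control replicate 2 of the skin stood apart. Its summed FPKM (fragments per kilobase of transcript, scaled to library size) of 13 enterocyte genes was 326, against 5.90 and 6.37 in the other skin controls. Its summed FPKM of 12 hair follicle and pigment genes was 67.0, against 672 and 1118. Results of the skin whose call, count or order changed without it are given both ways.

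The members lie on chromosomes 6 and 11. In the annotation of GRCm38.p6, the build to which the reads were aligned, a stretch of 368 kb at chr6:122921848-123289871 holds 9 protein-coding genes, and all 9 are C-type lectin genes. In order along the chromosome these are *Clec4a1*, *Clec4a3*, *Clec4a4*, *Clec4b1*, *Clec4a2*, *Clec4b2*, *Clec4n*, *Clec4d* and *Clec4e*, of which *Clec4e* alone is on the minus strand. A second stretch of 123 kb at chr6:129349783-129472785 holds 6 protein-coding genes, again all C-type lectins, in the order *Clec12a*, *Clec12b*, *Clec1b*, *Clec9a*, *Clec1a* and *Clec7a*. *Clec10a* lies apart from both stretches, at chr11:70166623-70170836 on the plus strand.

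The promoters of 5 members are shown, each from 250 bases before the start of the RefSeq transcript to 50 bases from it. They stand for the genes that rose in both tissues (*Clec4a1*, *Clec12a*), for those called in skin and not tested in small intestine (*Clec4d*, *Clec4e*), and for a gene called in neither tissue (*Clec7a*). The bases are those of GRCm38.p6, written 5′ to 3′ on the strand of the gene. Capitals mark the motif matches on either strand, which can adjoin or overlap.
Clec4a1, chr6:122921598-122921897, plus strand: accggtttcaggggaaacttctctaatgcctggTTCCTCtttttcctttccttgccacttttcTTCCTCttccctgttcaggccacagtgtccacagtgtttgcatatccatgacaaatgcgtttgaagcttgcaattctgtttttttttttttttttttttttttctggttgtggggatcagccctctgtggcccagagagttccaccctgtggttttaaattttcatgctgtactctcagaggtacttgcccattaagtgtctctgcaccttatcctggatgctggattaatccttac
Clec12a, chr6:129349994-129350293, plus strand: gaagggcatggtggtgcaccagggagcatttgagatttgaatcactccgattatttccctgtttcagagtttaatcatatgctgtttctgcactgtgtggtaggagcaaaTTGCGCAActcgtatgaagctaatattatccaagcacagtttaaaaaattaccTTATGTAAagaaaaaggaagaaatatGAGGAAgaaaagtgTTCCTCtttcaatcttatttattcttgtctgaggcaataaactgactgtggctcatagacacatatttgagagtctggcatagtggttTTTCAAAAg
Clec4d, chr6:123261857-123262156, plus strand: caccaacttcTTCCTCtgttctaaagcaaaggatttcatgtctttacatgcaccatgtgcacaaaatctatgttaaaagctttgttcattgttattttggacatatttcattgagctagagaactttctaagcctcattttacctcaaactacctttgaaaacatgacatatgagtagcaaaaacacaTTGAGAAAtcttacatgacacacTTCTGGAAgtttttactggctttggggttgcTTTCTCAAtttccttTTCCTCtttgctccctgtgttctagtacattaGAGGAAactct
Clec4e, chr6:123289822-123290121, minus strand: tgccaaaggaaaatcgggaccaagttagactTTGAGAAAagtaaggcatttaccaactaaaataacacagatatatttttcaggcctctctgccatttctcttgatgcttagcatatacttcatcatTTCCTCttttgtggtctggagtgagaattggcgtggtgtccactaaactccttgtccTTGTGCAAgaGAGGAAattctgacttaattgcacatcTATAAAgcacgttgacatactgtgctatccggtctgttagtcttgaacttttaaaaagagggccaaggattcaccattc
Clec7a, chr6:129472730-129473029, minus strand: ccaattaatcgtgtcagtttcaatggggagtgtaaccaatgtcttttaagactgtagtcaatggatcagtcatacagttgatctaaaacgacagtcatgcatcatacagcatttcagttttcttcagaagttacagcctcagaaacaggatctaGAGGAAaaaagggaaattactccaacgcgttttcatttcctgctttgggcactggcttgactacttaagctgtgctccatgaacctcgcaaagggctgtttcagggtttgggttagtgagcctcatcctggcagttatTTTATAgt

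Windows were at hand for 8 members, and for *Clec4a3* and *Clec7a* the first of 2 windows was counted. The letters GAGGAA, the core bound by the myeloid factor PU.1, were found on either strand in 5 of the 8 windows and in 28.3% of all 32851 promoter windows. The letters TTNNGNAA, which describe paired half-sites of C/EBP factors, were found in 4 of 8 and in 40.7% of all. TATAAA was found in 4 of 8 and in 13.6% of all. GGGANTTCC, a form of the NF-κB site, was in 0 of 8 and in 1.68% of all. In *Clec12a* the match TTGCGCAA reads as a C/EBP match on both strands, and the PU.1 matches of this gene begin 61 and 47 bases before the start. In *Clec4e* a TATAAA begins 29 bases before the start, and a PU.1 core match begins 56 bases before it. *Clec7a*, which was called in neither tissue, also held a PU.1 core match, 96 bases before its start. The promoters of the members were not near copies of each other, with at most 67.2% identity over the aligned bases for any pair.

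The Clec4a genes encode the DCIR family and were the members with the highest levels after treatment. *Clec4a2* encodes DCIR1, with an inhibitory motif, *Clec4a1* encodes DCIR4 and *Clec4a3* encodes DCIR3. In skin, normalized counts of *Clec4a1* were 887, 962 and 676 in the controls and 3862, 3184 and 3630 with IMQ. Those of *Clec4a2* were 641, 652 and 460 in the controls and 3247, 3329 and 3589 with IMQ. Those of *Clec4a3* were 860, 825 and 527 in the controls and 3561, 3107 and 3493 with IMQ. For all 3 genes every IMQ library of the skin was above every control, and control replicate 3 was the lowest. Among all genes tested in skin, 15.1% were higher without overlap.

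These genes rose in skin by 2.08 ± 0.16 (*Clec4a1*, 4.23-fold), 2.54 ± 0.16 (*Clec4a2*, 5.80-fold) and 2.20 ± 0.20 (*Clec4a3*, 4.59-fold) on the log2 scale, as log2 fold change ± SE. The adjusted p was 0.00238, 0.00138 and 0.00362 in edgeR's quasi-likelihood test, adjusted by Benjamini-Hochberg for the number of genes tested. Of the 10 members, 6 were called higher at an adjusted p under 0.05 and 0 lower. The background was 6.74% of the 20512 genes tested in skin called in either direction, with 4.05% higher and 2.69% lower. The median log2 fold change of the 10 members was 2.14, against -0.01 over all genes tested. The DESeq2 Wald test called 1 further member, *Clec4n*, and also 0 lower. Its own background was larger, at 3030 of the 20512 genes called, 1514 of them higher.

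In small intestine the same 3 genes started from lower levels and ended among the largest rises of that tissue. Normalized counts of *Clec4a1* were 190, 150 and 127 in the controls and 4237 and 3621 with IMQ. Those of *Clec4a2* were 245, 151 and 159 in the controls and 2146 and 1588 with IMQ. Those of *Clec4a3* were 92.2, 85.7 and 110 in the controls and 4219 and 3435 with IMQ. The groups were far apart for all 3 genes, and IMQ replicate 10 was above IMQ replicate 11 in each. Among all genes tested in small intestine, 15.1% were higher without overlap.

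The log2 fold changes in small intestine were 4.66 ± 0.19 (*Clec4a1*, 25.2-fold), 3.34 ± 0.26 (*Clec4a2*, 10.1-fold) and 5.31 ± 0.18 (*Clec4a3*, 39.8-fold), with adjusted p of 1.37e-04, 6.66e-04 and 7.26e-05 in edgeR's quasi-likelihood test (Benjamini-Hochberg). By log2 fold change *Clec4a3* ranked 9 and *Clec4a1* ranked 17 from the top of the 19965 genes tested. Of the 8 members that could be tested in this tissue, 4 were called higher and 0 lower, against a background of 2.95% of genes called in either direction with 2.77% higher and 0.170% lower. *Clec4d* and *Clec4e* had a control library without a count and were not tested. The median log2 fold change of the 8 members was 1.87, against -0.02 over all genes tested.

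*Clec12a* encodes an inhibitory receptor of monocytes, granulocytes and dendritic cells that senses uric acid crystals. Its normalized counts in skin were 190, 191 and 130 in the controls and 1530, 1333 and 1522 with IMQ. In small intestine they were 60.7, 67.5 and 75.7 in the controls and 580 and 645 with IMQ. The gene rose in both tissues, and no IMQ library came near a control of its tissue. In each tissue 15.1% of all genes tested were higher without overlap. The log2 fold change was 3.10 ± 0.19 (8.59-fold, adjusted p = 0.00129) in skin and 3.17 ± 0.21 (8.98-fold, adjusted p = 4.17e-04) in small intestine by edgeR's quasi-likelihood test. *Clec12a* was therefore called in both tissues together with the 3 Clec4a genes, while the other members were called in one tissue or in none.

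**Figure D1:**
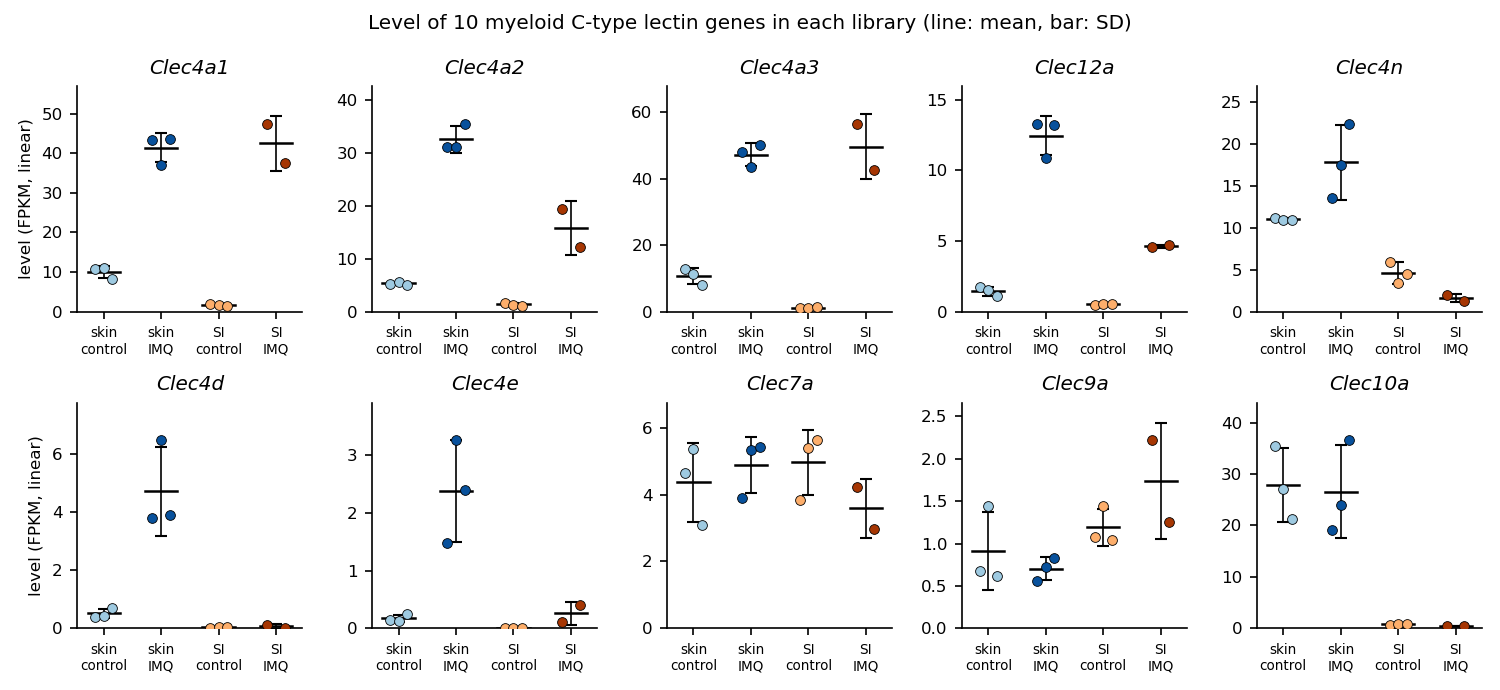
Level of each of the 10 genes (FPKM on a linear axis from 0, scaled per panel) in the control and IMQ libraries of skin and small intestine (SI), with 1 point per library, a line at the mean and a bar of 1 SD (n = 3, or 2 for IMQ-treated SI). *Clec4a1*, *Clec4a2*, *Clec4a3* and *Clec12a* were above the controls in every IMQ library of both tissues, *Clec4d* and *Clec4e* were high in IMQ-treated skin, and the groups of *Clec7a* overlapped in both tissues. In each tissue 15.1% of all genes tested were higher without overlap.

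*Clec4d* encodes the receptor MCL and *Clec4e* encodes Mincle, which are neighbours on the chromosome. Both couple to FcRγ, and Mincle binds mycobacterial glycolipids and a protein released by dying cells. In skin, normalized counts of *Clec4d* were 28.05, 33.8 and 47.9 in the controls and 290, 476 and 278 with IMQ. Those of *Clec4e* were 19.0, 19.6 and 31.4 in the controls and 213, 452 and 324 with IMQ. IMQ replicate 5 had the highest value of both genes, and no IMQ value overlapped the controls, as for 15.1% of all genes tested in skin in this direction. The log2 fold changes of 3.24 ± 0.34 (*Clec4d*, 9.46-fold, adjusted p = 0.00499) and 3.81 ± 0.39 (*Clec4e*, 14.0-fold, adjusted p = 0.00445) in edgeR's quasi-likelihood test stood above those of the other members in skin. This order was not stable, since *Clec12a* equalled *Clec4d* (3.19 each) when control replicate 2 was left out. On the log2(FPKM + 1) scale, which understates the change of low genes, *Clec4d* (1.89) and *Clec4e* (1.49) were below *Clec12a* (2.45) and *Clec4a2* (2.40), and both were still called. Their levels stayed low per transcript length, at a mean of 4.71 FPKM for *Clec4d* and 2.38 FPKM for *Clec4e* in IMQ-treated skin.

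In small intestine both genes were near the limit of detection. *Clec4e* had 0 counts in each of the 3 controls, and 19 and 58 counts in the IMQ libraries. Against a floor of 3 counts over the control group, *Clec4e* was at least 37.8-fold higher in IMQ-treated small intestine. From IMQ replicate 10 alone the bound was 17.5-fold and from replicate 11 alone 61.1-fold. Without the filter on low counts its adjusted p was 0.0309 in edgeR's quasi-likelihood test, with the larger part of the counts in replicate 11. *Clec4d* had 0, 4 and 4 counts in the controls and 12 and 2 with IMQ, a ratio of summed counts per total count of 2.58 (95% interval 1.01 to 7.09 for counting error only) and an adjusted p of 0.790 without the filter. The IMQ libraries of *Clec4d* lay on both sides of 2 of its controls, so the difference did not exceed the spread between libraries.

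*Clec4n* encodes dectin-2, a receptor for fungal mannans that also couples to FcRγ and lies beside *Clec4d*. Its normalized counts in skin were 719, 750 and 700 in the controls and 954, 1171 and 1473 with IMQ. In small intestine they were 430, 232 and 333 in the controls and 139 and 102 with IMQ. The values did not overlap between the groups in either tissue, with IMQ above the controls in skin and below them in small intestine. Of all genes tested, 15.1% were higher without overlap in skin and 13.9% were lower without overlap in small intestine. The log2 fold change was 0.73 ± 0.17 in skin (adjusted p = 0.0565) and -1.46 ± 0.33 in small intestine (adjusted p = 0.0762), and neither passed the threshold of edgeR's quasi-likelihood test. The DESeq2 Wald test called it in skin (adjusted p = 0.00485, against 0.00485 to 0.181 over all alternatives) and in small intestine (adjusted p = 4.21e-04, against 4.21e-04 to 0.406). In small intestine it was also called without control replicate 8 (edgeR's adjusted p = 0.0485) and in one fit of all 11 libraries (0.0140).

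*Clec7a* encodes dectin-1, the receptor for fungal β-glucan, which carries its own SYK-binding motif. Its normalized counts in skin were 543, 683 and 354 in the controls and 502, 667 and 644 with IMQ. In small intestine they were 512, 665 and 753 in the controls and 547 and 409 with IMQ. The groups overlapped in both tissues. The log2 fold change was 0.20 ± 0.26 in skin (adjusted p = 0.702) and -0.43 ± 0.23 in small intestine (adjusted p = 0.549, edgeR's quasi-likelihood test). In skin it ranged from -0.03 to 0.43 when single libraries were left out, so its sign was not fixed.

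*Clec9a* encodes DNGR-1, which binds actin filaments of dead cells and marks type 1 conventional dendritic cells. Its normalized counts in skin were 115, 263 and 97.6 in the controls and 102, 130 and 143 with IMQ. Control replicate 2, the library that stood apart, was the highest of the skin. The log2 fold change was -0.34 ± 0.41 (adjusted p = 0.678, edgeR's quasi-likelihood test) with this library and 0.23 (adjusted p = 0.595) without it. Over all alternatives the adjusted p ran from 0.445 to 0.871. In small intestine the normalized counts were 202, 258 and 206 in the controls and 409 and 251 with IMQ, which overlapped, and the log2 fold change was 0.57 ± 0.27 (adjusted p = 0.475). The GENCODE transcripts of *Clec9a* share 2.47% of their 100-base windows with those of *Clec1b*, so its counts are uncertain at least to that extent. In GENCODE *Clec1b* overlaps *Clec9a* on the same strand, whereas the RefSeq positions of both genes do not overlap. The RefSeq position of *Clec12b*, chr6:129375513-129427634 on the minus strand, spans *Clec9a*, and how strand was counted is not given.

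Other markers of type 1 conventional dendritic cells were 1 higher and 0 lower of 9 tested in skin (2 and 0 when control replicate 2 was left out), and 4 higher and 0 lower of 9 in small intestine. The median log2 fold change of the list was 0.34 in skin and 1.02 in small intestine. Their summed FPKM overlapped between the groups in both tissues, at 27.6 to 39.0 in the controls and 34.2 to 47.7 with IMQ in skin, and 57.6 to 75.5 and 62.3 and 76.3 in small intestine. *Batf3*, a transcription factor of these cells, rose by 1.87 in skin and 3.07 in small intestine. *Xcr1*, the chemokine receptor that defines them, had a log2 fold change of -0.72 in skin (adjusted p = 0.299) and rose by 1.15 in small intestine (adjusted p = 0.0457, edgeR's quasi-likelihood test). *Irf8*, *Tlr3* and *Itgae* of the same list had values of -0.44, -0.41 and -0.18 in small intestine, none called.

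*Clec10a* encodes the galactose-type lectin MGL1 of dermal macrophages and dendritic cells. It was the most abundant member in control skin, at a mean of 27.9 ± 7.20 FPKM (SD, n = 3). Its normalized counts in skin were 2784, 2276 and 1644 in the controls and 1642, 1980 and 2937 with IMQ, with overlap over nearly the whole range. The log2 fold change was -0.03 ± 0.27 (adjusted p = 0.959), with a range from -0.30 to 0.15 over the fits without single libraries. In small intestine the gene was rare, at 59.7, 67.5 and 74.8 normalized counts in the controls and 39.0 and 41.0 with IMQ. These groups did not overlap, but the log2 fold change of -0.75 ± 0.30 did not pass edgeR's quasi-likelihood test (adjusted p = 0.353). In this tissue 13.9% of all genes tested were lower without overlap.

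**Figure D2:**
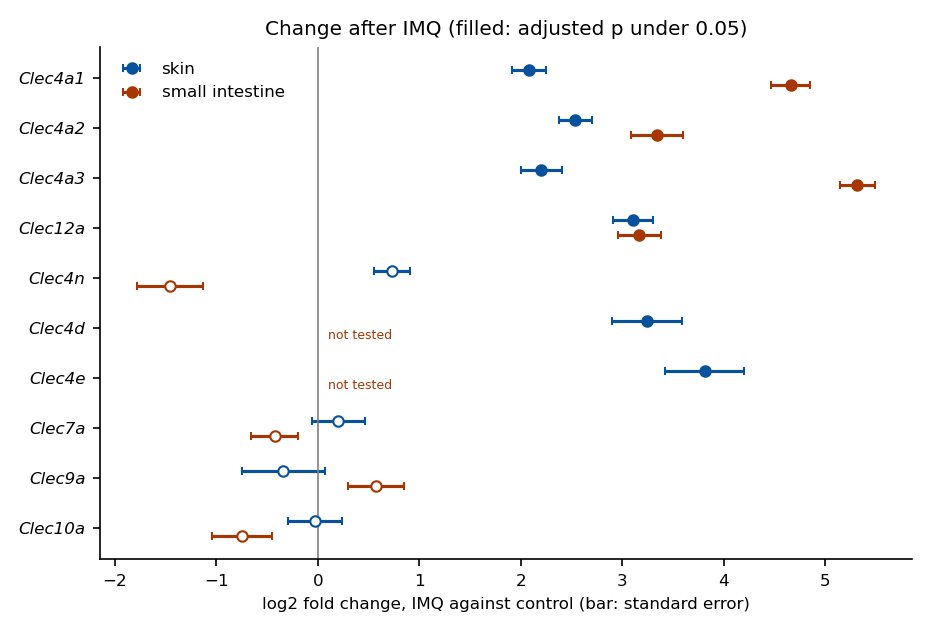
Log2 fold change of IMQ against control for each gene in skin (blue) and small intestine (brown), with a bar of 1 standard error; filled points passed edgeR's quasi-likelihood test at an adjusted p under 0.05. In skin 6 of 10 genes and in small intestine 4 of 8 tested genes were called, all higher. Of all genes tested, 4.05% were called higher in skin and 2.77% in small intestine. The points of *Clec4n* lie at 0.73 in skin and -1.46 in small intestine.

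The change with IMQ was next compared between the tissues, as the interaction of tissue and treatment in one model of all 11 libraries. Of the 8 members tested, 3 were called, 2 with a greater and 1 with a lesser change in small intestine, against a background of 2.55% of 18108 genes (1.70% greater and 0.856% lesser). *Clec4a3* rose more in small intestine than in skin by 3.12 ± 0.28 on the log2 scale (adjusted p = 6.00e-04), and *Clec4a1* by 2.58 ± 0.26 (adjusted p = 0.00115, edgeR's quasi-likelihood test). Both were called in all 11 fits that left out single libraries. The change of *Clec4n* was more negative in small intestine, by -2.18 ± 0.37 (adjusted p = 0.0129). This call was lost without IMQ replicate 10 (adjusted p = 0.05001) or IMQ replicate 11 (adjusted p = 0.0715) of the small intestine, and the adjusted p was at most 0.0239 under the other models.

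For the other members the difference between the tissues did not pass the test. It was 0.81 ± 0.31 for *Clec4a2* (adjusted p = 0.215) and 0.07 ± 0.27 for *Clec12a* (adjusted p = 0.935), by edgeR's quasi-likelihood test. The differences of *Clec9a* (0.92), *Clec10a* (-0.72) and *Clec7a* (-0.62) had standard errors of 0.54, 0.40 and 0.38. A p above the threshold does not show that these changes were equal in both tissues.

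The control tissues differed in most members. In the same model, control small intestine was lower than control skin in 6 of the 8 members tested and higher in 0, against a background of 57.0% of genes called in either direction with 28.8% lower and 28.2% higher. The log2 difference, small intestine minus skin, was -4.71 ± 0.28 for *Clec10a*, -2.61 ± 0.20 for *Clec4a3*, -2.10 ± 0.19 for *Clec4a1*, -1.33 ± 0.22 for *Clec4a2*, -0.99 ± 0.19 for *Clec12a* and -0.79 ± 0.24 for *Clec4n*. The adjusted p of these 6 genes in edgeR's quasi-likelihood test ran from 1.88e-07 (*Clec10a*) to 0.0149 (*Clec4n*). *Clec7a* (0.62 ± 0.25, adjusted p = 0.0580) and *Clec9a* (0.82 ± 0.37, adjusted p = 0.0803) did not pass. Without control replicate 2 of the skin both were called higher in small intestine, at 0.88 (adjusted p = 0.0120) and 1.42 (adjusted p = 0.00116). Over all alternatives their adjusted p ran from 0.0120 to 0.519 for *Clec7a* and from 0.00116 to 0.315 for *Clec9a*. On the log2(FPKM + 0.01) scale the median of all genes was itself shifted by -0.45, and on the log2(FPKM + 1) scale by -0.25, with the same 6 members lower.

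The order of the levels per transcript length changed with treatment. In control skin *Clec10a* (27.9 FPKM) stood above *Clec4n* (11.03), *Clec4a3* (10.7) and *Clec4a1* (10.1), of which the last 3 overlapped. *Clec4a2* (5.35) and *Clec7a* (4.37) followed and overlapped, then *Clec12a* (1.46), *Clec9a* (0.915), *Clec4d* (0.509) and *Clec4e* (0.172). *Clec12a* overlapped *Clec9a*, and *Clec9a* overlapped *Clec4d*. Without control replicate 2 of the skin, *Clec4n* no longer overlapped *Clec4a1*, *Clec4a2* no longer overlapped *Clec7a*, and *Clec12a* no longer overlapped *Clec9a*. In IMQ-treated skin *Clec4a3* (47.2 FPKM) and *Clec4a1* (41.3) led and overlapped, ahead of *Clec4a2* (32.6) and *Clec10a* (26.6), which overlapped each other. *Clec4n* (17.8), *Clec12a* (12.5), *Clec7a* (4.88) and *Clec4d* (4.71) came next, and *Clec9a* (0.703) was the lowest. *Clec10a* overlapped *Clec4n*, and *Clec7a* overlapped *Clec4d*.

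In control small intestine *Clec7a* (4.96 FPKM) and *Clec4n* (4.62) were the highest members and overlapped, and *Clec4a1* (1.73), *Clec4a2* (1.40), *Clec4a3* (1.27) and *Clec9a* (1.19) followed, each overlapping the next. With IMQ the order became *Clec4a3* (49.5 FPKM), *Clec4a1* (42.5), *Clec4a2* (15.9), *Clec12a* (4.62) and *Clec7a* (3.59), of which the first pair overlapped. The FPKM of *Clec4a1* in IMQ-treated small intestine, 37.6 and 47.4, overlapped the 37.1 to 43.5 of IMQ-treated skin. Those of *Clec4a3*, 42.6 and 56.5, overlapped the 43.3 to 50.2 of IMQ-treated skin. Both genes were thus lower in control small intestine than in control skin, and their FPKM overlapped between the tissues after treatment.

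The make-up of the receptor levels shifted accordingly. The FPKM of the 10 genes summed to 59.4 to 83.2 in control skin, 178 to 214 in IMQ-treated skin, 16.0 to 17.0 in control small intestine, and 104 and 137 in IMQ-treated small intestine. *Clec4a1*, *Clec4a2* and *Clec4a3* together held 34.7% to 37.4% of this sum in control skin and 60.4% to 68.7% with IMQ. In small intestine they held 23.6% to 29.4% in the controls and 89.3% and 90.1% with IMQ. The share of *Clec7a* in small intestine was 22.7% to 34.2% in the controls and 2.86% and 3.08% with IMQ, although its own level overlapped between the groups.

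**Figure D3:**
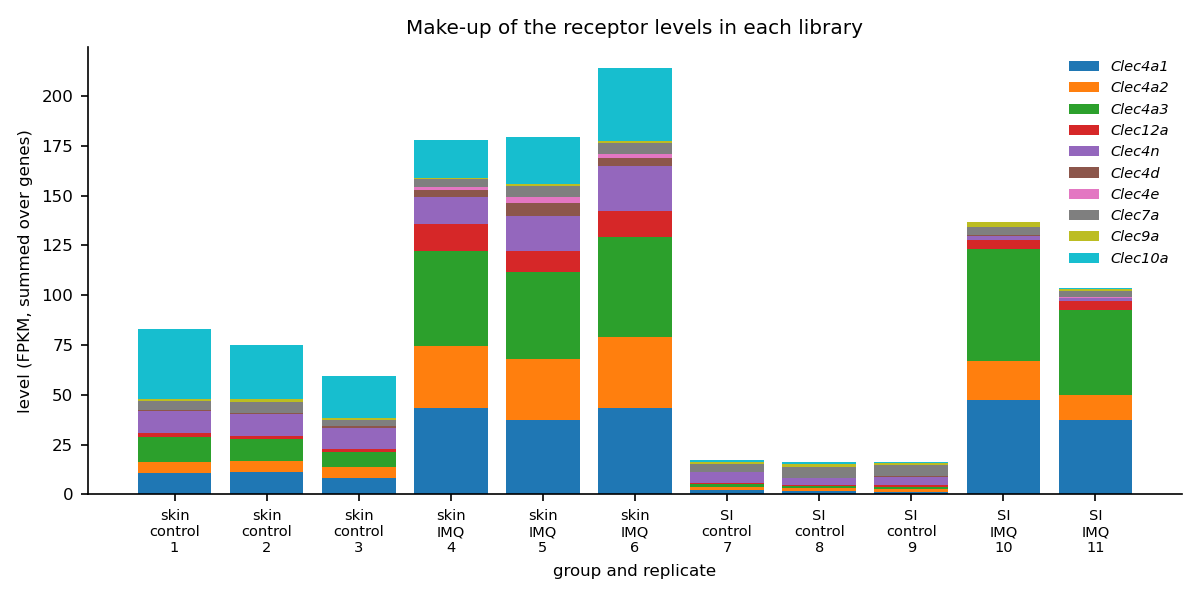
FPKM of the 10 genes stacked for each of the 11 libraries on a linear axis, labelled by group and replicate. The stacks of the IMQ libraries reach 104 to 214 FPKM against 16.0 to 83.2 in the controls, and the lower 3 segments (*Clec4a1*, *Clec4a2* and *Clec4a3*) make up most of each IMQ stack.

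Along the Clec4 stretch the genes that rose did not form one unbroken run. In skin, *Clec4a1*, *Clec4a3*, *Clec4a4*, *Clec4b1* and *Clec4a2* were called higher in a row, with log2 fold changes from 2.08 to 2.75. *Clec4b2* (-0.79) and *Clec4n* (0.73), which come next, were not called, and *Clec4d* and *Clec4e* at the end were called again. In small intestine *Clec4a1*, *Clec4a3*, *Clec4b1* and *Clec4a2* were called, and *Clec4a4* between them had a log2 fold change of 0.55 (adjusted p = 0.686, edgeR's quasi-likelihood test). *Clec4b1*, which encodes another member of the DCIR-like group, rose by 2.75 in skin and 5.20 in small intestine. In the second stretch *Clec12a* was called in both tissues, and the other 5 genes were called in neither where they were tested.

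**Figure D4:**
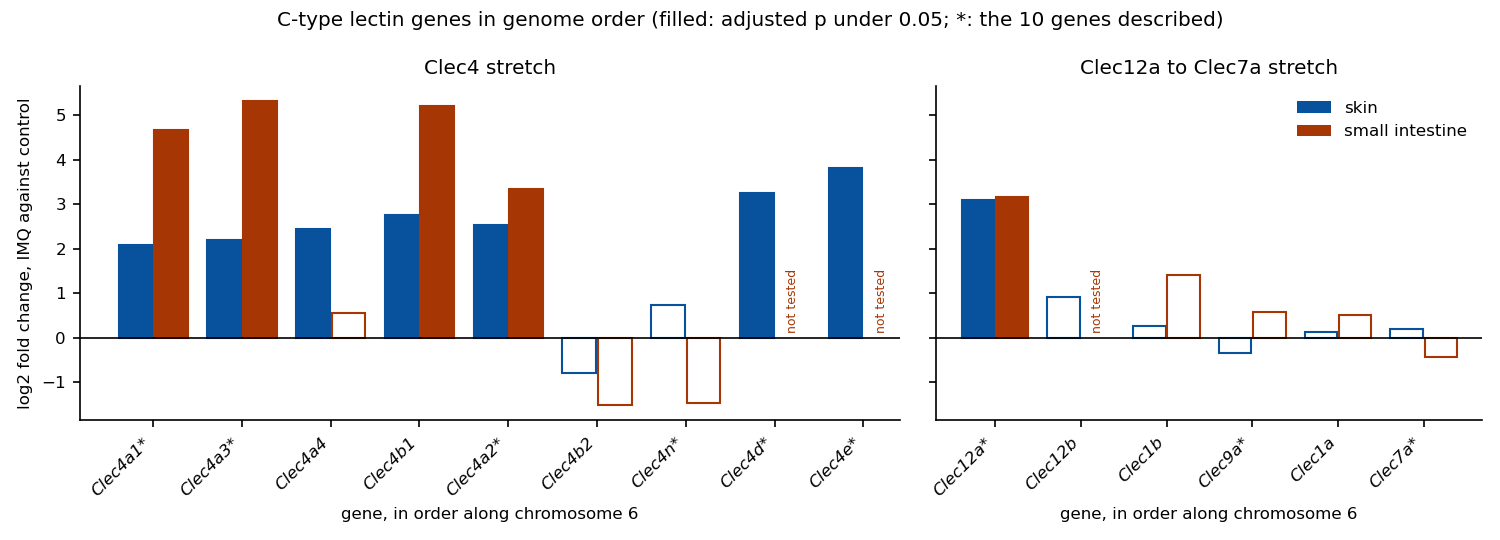
Log2 fold change of IMQ against control for the C-type lectin genes of both chromosome 6 stretches in their order along the chromosome (not to distance), in skin (blue) and small intestine (brown); filled bars passed edgeR's quasi-likelihood test at an adjusted p under 0.05 and an asterisk marks the genes described. In the Clec4 stretch the called genes are at both ends in skin, and in the second stretch *Clec12a* is the gene called in both tissues.

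The coding sequences of the members are related but distinct, which bears on how well their counts can be separated. The most alike were *Clec4a2* and *Clec4a3* with 77.2% identity over 702 aligned bases, followed by *Clec4a1* and *Clec4a2* (75.1%) and *Clec4a1* and *Clec4a3* (73.4%). Apart from *Clec9a*, the members had no 100-base window in common with the transcripts of any other gene. At this length the reads of *Clec4a1*, *Clec4a2* and *Clec4a3* can be told apart, as far as the annotated sequence goes.

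The likeness of patterns over the 11 libraries was described by the root mean square difference of log2 normalized counts, each gene centred on its mean. Among 16329 genes with a mean of at least 50 normalized counts, *Clec4a1* and *Clec4a3* were nearest to each other (0.33), and *Clec4b1* was next for both (0.34 and 0.40). *Clec4a2* and *Clec12a* both had *Csf3r*, the receptor for granulocyte colony-stimulating factor, as nearest gene (0.24 and 0.26), and each other as second (0.34). *Clec4n* was nearest to *Clec5a* (0.30), the lectin receptor for dengue virus, and then to *Tceal5* (0.34). *Clec7a* was nearest to *Stxbp3* (0.18) and *Sypl* (0.19), *Clec9a* to *Trim34b* (0.21) and *Gbp3* (0.27), and *Clec10a* to *Myo18b* (0.28) and *Itgb1bp2* (0.32). *Clec4e* and *Clec4d* had no near match, with 0.81 to *Fcrls* and 0.73 to *Gm35039*. These are descriptions without a test, and the 11 libraries share tissue and treatment.

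The genes that act below these receptors were taken as a list of 13, and 8 were called higher and 0 lower in each tissue (9 and 0 in skin when control replicate 2 was left out), with a median log2 fold change of 1.05 in skin and 1.47 in small intestine. *Fcer1g*, which encodes FcRγ, had a log2 fold change of 1.96 ± 0.16 in skin and 3.47 ± 0.22 in small intestine, the highest of the list in both, although in skin *Vav1* (2.08) exceeded it (2.01) when control replicate 2 was left out. *Tyrobp*, the related adaptor DAP12, rose by 1.53 in skin and 2.004 in small intestine. The kinase gene *Syk* rose by 1.30 and 2.48, and *Vav1*, an exchange factor downstream of it, by 1.79 and 2.13.

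The phosphatase genes of inhibitory signalling were in part among them. *Ptpn6* (SHP-1) rose by 1.18 in skin and 1.86 in small intestine, and *Inpp5d* (SHIP-1) by 1.21 and 1.47. *Ptpn11* (SHP-2) had log2 fold changes of -0.10 and -0.03 and was not called in either tissue. The calls of *Ptpn6* and *Inpp5d* in skin were lost without the first control library (adjusted p = 0.106 and 0.126) and without any one of the 3 IMQ libraries. Over all alternatives the adjusted p ran up to 0.106 and 0.131. That of *Vav1* in skin was 0.0561 without control replicate 1, and that of *Inpp5d* in small intestine 0.0503 without IMQ replicate 11.

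The complex that links SYK to NF-κB was called only in part. *Card9* rose by 1.82 in small intestine and had a log2 fold change of 0.89 in skin (adjusted p = 0.0686, 0.0160 without the second control library and 0.00557 to 0.227 over all alternatives, edgeR's quasi-likelihood test). *Bcl10* rose by 0.55 in skin and had -0.09 in small intestine. *Malt1* had 0.19 and 0.06, and *Prkcd* had -0.07 and 0.09, with no call in either tissue. *Vav3* rose by 1.05 in skin and had 0.66 in small intestine, and *Plcg2* rose by 1.03 in small intestine and had 0.60 in skin. The call of *Bcl10* in skin was lost in 5 of the 6 fits without a single library and on both FPKM scales, and that of *Plcg2* in small intestine in 4 of 5 such fits and in 2 of 8 other alternatives. The call of *Vav3* in skin was lost in 2 of 6 fits without a single library, and that of *Card9* in small intestine in 1 of 5.

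**Figure D5:**
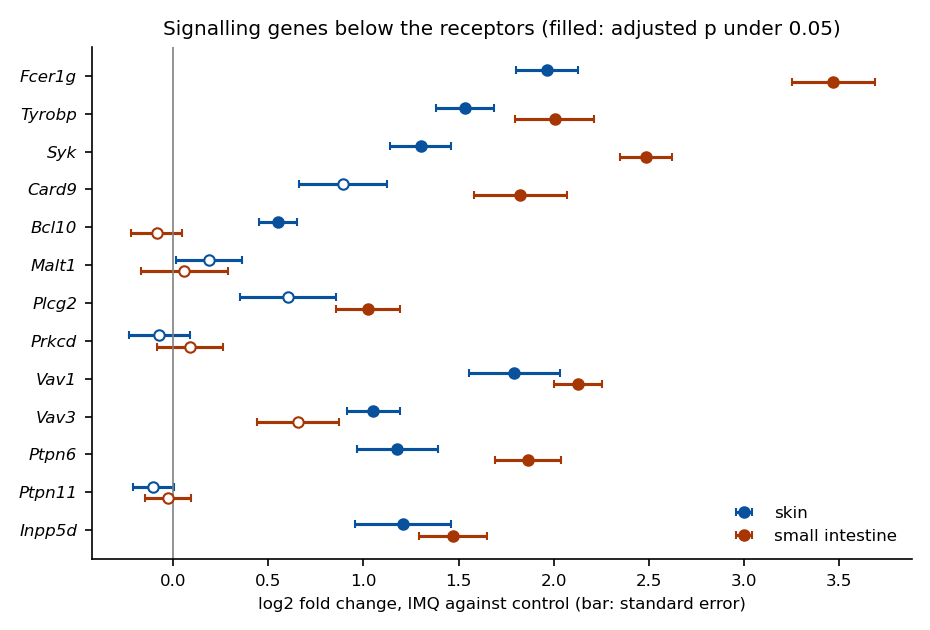
Log2 fold change of IMQ against control for the 13 signalling genes in skin (blue) and small intestine (brown), with a bar of 1 standard error; filled points passed edgeR's quasi-likelihood test at an adjusted p under 0.05. *Fcer1g* is the farthest to the right in both tissues with all libraries (1.96 and 3.47), and *Malt1*, *Prkcd* and *Ptpn11* are open near 0 in both.

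Of 34 other C-type lectin genes, 7 were called higher and 3 lower of 31 tested in skin (7 and 2 when control replicate 2 was left out), and 2 higher and 1 lower of 25 in small intestine. The medians of their log2 fold changes were 0.14 and 0.05. *Clec4b1* and *Cd72*, an inhibitory receptor of B cells and myeloid cells, had the highest values in both tissues, with 2.63 in skin and 4.40 in small intestine for *Cd72*. *Mgl2*, the paralog of *Clec10a*, fell by 2.57 in skin and had -2.16 in small intestine (adjusted p = 0.0683, edgeR's quasi-likelihood test). *Cd209c* fell by 1.91 in skin, close to the threshold (adjusted p = 0.0495, edgeR's quasi-likelihood test). *Cd209f* (1.63) and *Cd209g* (1.81), named after their values were seen, were called higher there, and the other Cd209 genes listed were not called. In small intestine *Cd209b* had the lowest value (-3.01, adjusted p = 0.119), and *Clec5a* was the gene called lower (-2.07, named after its values were seen).

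Markers of all leukocytes were mostly higher with IMQ, and those of single cell types differed from list to list. Of 8 genes of all leukocytes, 7 were called higher in skin (8 when control replicate 2 was left out) and 6 in small intestine, with medians of 1.25 and 1.78. Their summed FPKM was 195 to 236 in control skin and 396 to 637 with IMQ, and 113 to 146 in control small intestine and 356 and 409 with IMQ. Of 12 macrophage genes, 6 were called higher and 0 lower in each tissue, with medians of 0.90 and 1.07 and summed FPKM of 522 to 741 against 1166 to 1530 in skin and 287 to 385 against 923 and 996 in small intestine. *Adgre1*, which encodes F4/80, had the highest log2 fold change of the macrophage list in skin (2.88), and *C1qb*, a subunit of complement C1q, in small intestine (2.83). The lowest values were *Mertk* in skin (-0.36) and *Cx3cr1* in small intestine (-0.14), neither called. The part of these cells in the changes of the members was not tested.

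Of 10 monocyte genes, 4 were called higher and 1 lower of 10 tested in skin (4 and 2 when control replicate 2 was left out). In small intestine 2 were higher and 0 lower of 9, and the medians were 0.66 and 0.37. The summed FPKM was 143 to 174 against 128 to 211 in skin and 1433 to 1624 against 1520 and 1547 in small intestine. In each intestinal library *Ace* had 78373 to 118627 counts and *Plac8* 45492 to 50299, far more than the other genes of the list. The intestinal sum is therefore weighted to *Ace* and *Plac8*. *Chil3* had the highest value in skin (4.87, from 4 to 16 counts in the controls) and was not tested in small intestine. With all libraries *Fn1* was the gene called lower in skin (-0.97), and *Vcan* had the lowest value there (-1.18, not called). *Treml4* and *Ms4a4c*, markers of patrolling monocytes and interferon-exposed monocytes, rose in both tissues, by 3.18 and 1.73 in skin and by 2.93 and 3.29 in small intestine. *Ly6c2* and *Ccr2*, which define inflammatory monocytes, had log2 fold changes of 0.18 and 0.87 in skin and -0.52 and 0.66 in small intestine, none called. These genes beyond the list's highest and lowest pair were named after their values were seen.

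The summed level of the neutrophil list differed between the tissues. In skin 8 of 9 tested genes were called higher and 0 lower, with a median of 3.04, and the summed FPKM was 17.2 to 17.4 in the controls and 7050 to 8607 with IMQ. The list holds *S100a8* and *S100a9*, which inflamed keratinocytes also express and which had 61716 to 133494 counts in each IMQ-treated skin. In small intestine 2 of 7 were called higher and 1 lower, and the summed FPKM was 10.3 to 11.8 in the controls and 16.6 and 17.1 with IMQ. The defining marker *Ly6g* had 0 to 9 counts in every library. In small intestine *Cxcr1* had 0 counts and *S100a8* had 0 to 11 counts in each library, whereas *Retnlg* had 182 to 242 and *Mmp9* 213 to 653. *Csf3r*, of the same list, rose by 3.04 in skin and 3.21 in small intestine.

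The other lists were described by their counts. Of 9 markers of type 2 conventional dendritic cells, 2 were called higher and 0 lower in each tissue. Of the Langerhans cell list, 0 of 5 were called in skin, and 0 were higher and 1 was lower of 4 in small intestine. The gene called lower there was *Cd74* (-1.60). *Cd207* of this list, named after its values were seen, had 0 counts in every library of the small intestine. The B cell follicle list had 2 higher and 0 lower of 6 in skin (2 and 1 when control replicate 2 was left out) and 0 calls of 10 in small intestine. Of the eosinophil genes, 0 of 2 were called in skin and 0 of 4 in small intestine, with *Epx* and *Prg3* untested in both. The keratinocyte list had 1 higher and 0 lower of 9 in skin, with 0 calls once control replicate 2 was left out, and 0 calls of 2 in small intestine. The enterocyte list had 0 calls of 2 in skin and of 13 in small intestine, and the hair follicle list had 0 calls of 4 in small intestine. In skin 2 of 10 hair follicle genes were called lower, and leaving out the control that stood apart raised this number to 9.

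Without control replicate 2 of the skin, the same 6 members were called higher there and 0 lower. The background was then 12.1% of 20752 genes called in either direction, 1139 higher (5.49%) and 1382 lower. Their log2 fold changes were then 2.19 for *Clec4a1*, 2.62 for *Clec4a2*, 2.29 for *Clec4a3*, 3.19 for *Clec12a*, 3.19 for *Clec4d* and 3.70 for *Clec4e*. The interaction was 2.46 for *Clec4a1*, 3.01 for *Clec4a3* and -2.23 for *Clec4n* without this library, each called.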

How the data were processed

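RNA of skin and small intestine was sequenced as 100-bp paired-end reads from stranded mRNA libraries, and 11 libraries were assigned to 4 groups from their titles. The authors trimmed the reads with Trimmomatic, aligned them to mm10 with HISAT2 2.1.0 and quantified genes with StringTie 2.1.3b (per the labels and the study's methods), and deposited whole-number read counts per gene without normalization. They also deposited FPKM, scaled by the authors for transcript length and library size, and TPM, also the authors' own, which was left out of the tests. How strand and reads with several matches were counted is not given in the sources used here.

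Genes at 0 counts in any library of a fit were dropped (minimum 1), and the others were normalized by relative log expression (RLE) and tested with the quasi-likelihood test of edgeR 4.0.16 in R 4.3.3, by tissue, and in one model of 11 libraries for the interaction and the control tissues. Calls had a Benjamini-Hochberg adjusted p under 0.05. Normalized counts are counts per effective library size times the mean of the tissue. The standard error is the log2 fold change over the square root of F. DESeq2 1.42.0 and limma 3.58.1 were alternatives, with TMM, other filters, log2(FPKM + 0.01), log2(FPKM + 1) and each library left out. Simulated data held 200 changed genes, and genes with few counts were not among those drawn, so recovery of such genes was not tested. For changes upward, the skin fit recovered 100% of log2 changes of 3 and 46% of 1. The intestinal fit recovered 100% and 52%. Of 156 calls in each fit, 9 in skin and 11 in small intestine were false. Library totals were 44995414 to 58526384 counts, so depth limits genes with few counts and the spread between libraries the others.

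The members and the marker lists were chosen with earlier results of these data known. By rule the text names all members, all signalling genes and, of other lists, up to the 2 highest and the 2 lowest log2 fold changes; others are said to be named after their values were seen, and *Batf3*, *Xcr1*, *Irf8*, *Tlr3*, *Itgae*, *Csf3r*, *Ly6g*, *Cxcr1*, *S100a8*, *S100a9*, *Retnlg* and *Mmp9* were named as markers of their cells. Promoters and positions are from RefSeq and GENCODE on GRCm38.p6, read with Python 3.11.15.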

Additional observations from a re-analysis of the deposited data

Results flagged for a closer look

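The change with IMQ differed between small intestine and skin for 3 of the 8 members tested. This was the interaction of tissue and treatment in edgeR's quasi-likelihood test (Benjamini-Hochberg). The background was 2.55% of 18108 genes called, with 1.70% greater and 0.856% lesser in small intestine. *Clec4a3* had an interaction of 3.12 on the log2 scale (adjusted p = 6.00e-04), with higher values in 2 of 2 IMQ libraries of the small intestine and 3 of 3 of the skin than in any control of the tissue. *Clec4a1* had an interaction of 2.58 (adjusted p = 0.00115), with the same separation. *Clec4n* had an interaction of -2.18 (adjusted p = 0.0129), with 3 of 3 IMQ libraries above the controls in skin and 2 of 2 below them in small intestine. The call of *Clec4n* did not hold when either IMQ library of the small intestine was left out. Among all genes tested, 15.1% were higher without overlap in each tissue and 13.9% were lower without overlap in small intestine. The groups have at most 3 libraries, so no library was tested as an outlier. Control replicate 2 of the skin stood apart by its marker genes, and the 3 interactions were also fitted without it.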

How the results depend on the processing

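No paired analysis was possible because the groups share no replicate number. Of the members, 6 were called in skin, 7 by DESeq2 and 4 of the 8 tested in one fit of 11 libraries, in which *Clec4d* and *Clec4e* were not tested. In small intestine 4 or 5 were called under every alternative, for the interaction 3, or 2 without either IMQ library of the small intestine, and between the control tissues 6 to 8. The number of all genes called moved more. In skin it was 1382, with 3030 by DESeq2, 894 on log2(FPKM + 1) and 258 to 2521 without single libraries. In small intestine it was 588, with 1206 by DESeq2 and 294 to 801 without single libraries. For the interaction it was 462, with 1281 by DESeq2, 301 without the filter and 144 to 1072 without single libraries. The share of calls that were higher was 60.1% in skin, 49.97% by DESeq2 and 48.9% in one fit of 11 libraries, and 94.2% and 83.4% (DESeq2) in small intestine. Without single libraries it ran from 45.2% (without control replicate 2) to 84.9% (without IMQ replicate 5) in skin and from 85.8% to 98.5% in small intestine. The interaction of *Clec12a* turned to -0.57 on log2(FPKM + 1). Without single libraries it ran from -0.038 to 0.26, and the log2 fold change in skin ran from -0.60 to 0.23 for *Clec9a*, -0.30 to 0.15 for *Clec10a*, -0.027 to 0.43 for *Clec7a* and from -0.23 to 0.032 for *Prkcd*. In small intestine it ran from -0.12 to 0.27 for *Prkcd*, from -0.13 to 0.20 for *Malt1* and from -0.064 to 0.0035 for *Ptpn11*. None of these was called, and the causes were not tested. Few counts limit *Clec4d* and *Clec4e* in small intestine.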
